A study of Mus musculus with 312 samples.

Results

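Slpi and 4 other genes were followed through single cells of the mouse mammary gland. Slpi encodes the secretory leukocyte peptidase inhibitor, and Wfdc2, Wfdc3 and Wfdc18 are listed with it because they carry the same protein fold. Chil1 has no such domain and was listed beside them as a further secreted gene. The 5 genes were taken by their symbols, with Entrez 20568 for Slpi, 67701 for Wfdc2, 71856 for Wfdc3, 14038 for Wfdc18 and 12654 for Chil1, out of 25136 genes used. Slpi and Chil1 were chosen by their CPM in these same cells, which earlier results had shown to be lower in pregnancy, so their differences between stages are given as a description only.

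The WAP domain, named after whey acidic protein, is a short fold held together by disulfide bonds, and many proteins that carry it are secreted inhibitors of serine proteases. Slpi blocks neutrophil elastase and cathepsin G at mucosal surfaces, has antimicrobial activity, and protects progranulin from cleavage by elastase. Wfdc18, also known as Expi or WDNM1, is a small secreted protein of the mammary gland, Wfdc2 is the mouse counterpart of the serum marker HE4, and Chil1 is a chitinase-like glycoprotein that binds chitin without cutting it and was once called breast regression protein.

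Each measured sample was 1 cell from an FVB/NJ mouse, sorted as basal, the outer contractile layer of the mammary epithelium, and captured on the Fluidigm C1. There were 237 adult cells, 112 of which carry the mark (2) in their titles and 125 of which do not, and 75 cells from pregnant mice. The labels explain neither the mark nor the day of pregnancy, and they name no animals. The study's methods describe adult basal cells as negative for lineage markers, CD24 positive and high in CD29, whereas for pregnancy cells run on the C1 they name total epithelium at mid-pregnancy, although the labels say basal. Since all pregnancy cells share 1 form of title, capture run and stage cannot be told apart. With animals unnamed, each group counts as 1 sample, and no difference below has a replicate check or a p-value.

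Cells entered with 50000 or more assigned read pairs and 1000 or more detected genes, mitochondrial and ribosomal protein genes not counted. This left 81 adult (2) cells, 58 adult cells without the mark and 71 pregnancy cells, with medians of 174910, 101320.5 and 230645 assigned reads. Levels are in CPM, reads of a gene per 1000000 assigned reads of its cell, and 1 read was worth a median of 5.72, 9.87 and 4.34 CPM in the 3 groups. At least 6 of 11 core basal genes reached 100 CPM in 76 adult (2) cells, 51 adult cells without the mark and 70 pregnancy cells. By these genes the basal label held for most cells, including those of pregnancy. At least 3 of 7 pan-luminal genes reached 100 CPM in 17 adult (2) cells, 8 adult cells without the mark and 6 pregnancy cells.

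Slpi, Wfdc2 and Wfdc3 lie on chromosome 2 in a stretch rich in WAP-domain genes, the transcription start of Wfdc2 lying 206 kb and that of Wfdc3 387 kb from the start of Slpi. On GRCm38.p6 coordinates of RefSeq, Slpi occupies 164354070 to 164356507 on the minus strand, Wfdc2 164562715 to 164568510 on the plus strand, and Wfdc3 164731226 to 164745994 on the minus strand. Wfdc18 is on chromosome 11 at 83709004 to 83711360, and Chil1 on chromosome 1 at 134182156 to 134190031, both on the plus strand. The promoter of each of the 5 genes was found in the RefSeq table, and those of Slpi, Chil1 and Wfdc18 are shown because the levels of these 3 genes differed at least 2-fold between stages. Each runs 5′ to 3′ on the strand of the gene, from 250 bases before the start to 50 after it. Capitals mark matches, on either strand, to TATAAA of the TATA box, TGANTCA of AP-1, TTCNNNGAA of STAT factors, TTGCNNAA of C/EBP factors and TGTTCT of steroid receptor half-sites.
Slpi, chr2:164356458-164356757, minus strand: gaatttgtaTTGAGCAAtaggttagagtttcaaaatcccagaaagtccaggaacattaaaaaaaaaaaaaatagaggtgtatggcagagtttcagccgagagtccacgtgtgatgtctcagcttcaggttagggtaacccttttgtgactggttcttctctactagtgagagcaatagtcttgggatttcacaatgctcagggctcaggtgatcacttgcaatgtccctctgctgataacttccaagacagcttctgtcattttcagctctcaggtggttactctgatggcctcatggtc
Chil1, chr1:134181906-134182205, plus strand: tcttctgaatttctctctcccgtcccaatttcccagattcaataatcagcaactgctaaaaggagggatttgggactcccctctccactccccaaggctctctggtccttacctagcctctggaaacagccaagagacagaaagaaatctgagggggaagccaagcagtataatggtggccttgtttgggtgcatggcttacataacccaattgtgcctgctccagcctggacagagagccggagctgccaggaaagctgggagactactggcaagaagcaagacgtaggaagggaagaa
Wfdc18, chr11:83708754-83709053, plus strand: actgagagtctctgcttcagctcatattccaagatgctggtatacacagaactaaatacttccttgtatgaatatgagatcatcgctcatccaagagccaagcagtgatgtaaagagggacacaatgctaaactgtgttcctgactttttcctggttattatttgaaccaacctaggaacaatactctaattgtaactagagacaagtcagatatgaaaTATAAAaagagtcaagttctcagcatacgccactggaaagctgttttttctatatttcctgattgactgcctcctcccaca
Over 32851 promoters of this length, these motifs were held by 13.6%, 7.81%, 8.30%, 10.8% and 19.0%, in the order given. Slpi held 1 match, of the C/EBP letters read on the opposite strand, at 241 to 234 bases before its start. Wfdc18 held a TATA box at 31 to 26 bases before its start, and Chil1 held none of the 5 motifs in this window. The 3 promoters thus shared none of the letters searched.

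Slpi was among the most abundant transcripts of adult cells. In adult (2) cells it ranged from 0 to 54424 CPM with a median of 5531, in adult cells without the mark from 0 to 50901 (median 512), and in pregnancy cells from 0 to 1768 (median 3.66). Mean levels were 8548 CPM (SD over cells 10205, n = 81), 6259 (SD 11838, n = 58) and 46.2 (SD 223, n = 71). By mean CPM per kilobase of exon (RPKM), Slpi ranked 2 among all genes in both adult sets, at 9758 and 7145, above the basal keratin Krt14 at 3073 and 2154, and ranked 1537 in pregnancy, at 52.8. The ranges overlapped, since 5 and 6 adult cells of the 2 sets had no Slpi read, but 80 of 139 adult cells lay above the highest pregnancy cell.

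The log2 ratio of mean CPM, with 10 CPM added to both means, was -7.08 for pregnancy over adult, 135-fold lower, and it was the lowest of 9306 genes compared. It was -7.25 against adult (2) cells and -6.80 against adult cells without the mark, the lowest ratio in each of these comparisons as well. From pooled reads with nothing added, 696 in pregnancy against 172604 in adult, the log2 ratio was -7.53 (exact 95% interval -7.64 to -7.42, counting error only). Both the level of Slpi and the number of cells with abundant Slpi were lower in pregnancy. At 100 CPM or more it was seen in 70 of 81 adult (2) cells (86.4%, exact Clopper-Pearson interval 77.0 to 93.0%), 31 of 58 adult cells without the mark (53.4%, interval 39.9 to 66.7%) and, in pregnancy, 4 of 71 (5.63%, interval 1.56 to 13.8%).

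Most pregnancy cells with Slpi held it at a low level. Among the 71 pregnancy cells, 43 held at least 1 Slpi read and 39 of these lay below 100 CPM. After each cell was thinned to 50000 reads, so that depth no longer differed, Slpi was seen in 12 pregnancy cells (16.9%), 75 adult (2) cells (92.6%) and 46 adult cells without the mark (79.3%). The pregnancy mean rested on few cells. Pregnancy cell 35, at 1768 CPM, held 53.9% of the summed CPM, and the mean without it was 21.6 CPM. The log2 ratio was -7.84 without the highest cell of each group, and -4.40 with no filter on cells, which lets in pregnancy cell 73 with 386 Slpi reads among 25426 and 93.3% mitochondrial reads. Cells 54, 32 and 27 followed at 609, 314 and 116 CPM, and each of these 4 cells had 10 of the 11 core basal genes.

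**Figure D1:**
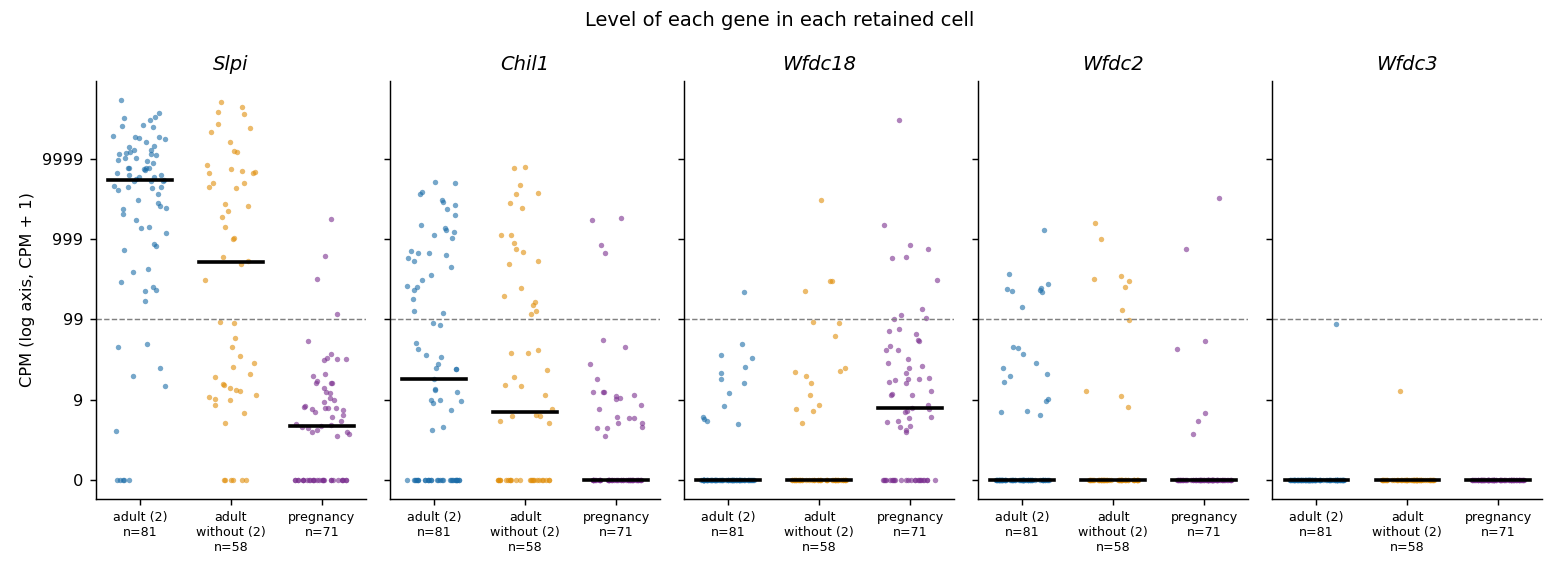
Each point is 1 retained cell, with its level of the named gene in CPM on a log axis (CPM + 1) by group, and black bars are medians over cells. Most adult (2) points of Slpi lie above the dashed line at 100 CPM, adult cells without the mark spread over both sides of it, and 67 of 71 pregnancy points lie below, whereas Wfdc18 has its points above the line mainly in pregnancy.

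Chil1 was also lower in pregnancy, by less and at a lower level. It ranged from 0 to 5162 CPM in adult (2) cells (median 16.9), from 0 to 7900 in adult cells without the mark (median 6.08), and from 0 to 1857 in pregnancy (median 0). Many cells of every group, 30, 24 and 45 in the same order, held no Chil1 read, and the ranges overlapped throughout. At 100 CPM or more it was seen in 30 of 81 adult (2) cells (37.0%, interval 26.6 to 48.5%), 20 of 58 without the mark (34.5%, interval 22.5 to 48.1%) and 4 of 71 in pregnancy (5.63%, interval 1.56 to 13.8%). Mean CPM was 555 (SD 1132), 689 (SD 1699) and 75.6 (SD 321), and the log2 ratio for pregnancy over adult was -2.86, at rank 47 from the lowest of 9306 genes. The fall was of like size against both adult sets, at -2.72 and -3.03. In RPKM, Chil1 stood at 328 and 408 in the adult sets and 44.8 in pregnancy, below Slpi in each group.

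Wfdc18 went the other way. It ranged from 0 to 219 CPM in adult (2) cells, from 0 to 3037 in adult cells without the mark and from 0 to 30258 in pregnancy, with medians of 0, 0 and 6.88. Its mean of 508 CPM in pregnancy was set by 1 cell, since pregnancy cell 71 held 83.9% of the summed CPM and the mean without it was 83.0. Adult cell 155 held 64.8% of the adult sum, and the adult mean of 33.7 CPM became 11.9 without it. The log2 ratio for pregnancy over adult was 3.57, and 2.08 without the highest cell of each group. More pregnancy cells also held the transcript, since 35 of 71 kept at least 1 Wfdc18 read after thinning (49.3%, interval 37.2 to 61.4%). Among adult cells 20 of 139 did (14.4%, interval 9.02 to 21.3%), while 100 CPM was reached in 11 pregnancy cells and 5 adult cells.

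Some of the cells highest in Wfdc18 also held milk and luminal genes. Pregnancy cell 71 had 5 of 7 milk protein genes, 6 of 7 pan-luminal genes and 5 core basal genes at 100 CPM or more, with 56.5% mitochondrial reads, and its Slpi level was 10.9 CPM. The next 3 pregnancy cells, at 1488, 840 and 763 CPM, had 1 to 2 milk protein genes and 7 to 10 core basal genes. Their mitochondrial reads were 48.6%, 25.3% and 53.7%, against a median of 18.4% in pregnancy cells. Adult cell 155 had 4 milk protein genes, 4 mature luminal genes and 4 fibroblast genes beside 10 core basal genes, whereas the highest adult (2) cell, number 60 at 219 CPM, had no milk protein gene. At least 1 milk protein gene was seen in 34 of all 71 pregnancy cells. Over pregnancy cells, Spearman's rho of thinned Wfdc18 counts with summed milk protein counts was 0.31 (n = 71), and 0.27 without cell 71, but that with mature luminal genes was -0.17 and -0.24. In adult cells without the mark this rho was 0.62 (n = 58) and that with mature luminal genes 0.70, and in adult (2) cells they were 0.20 and 0.31 (n = 81). The rho of Wfdc18 with the mitochondrial share was 0.31 in pregnancy, 0.32 in adult cells without the mark and 0.02 in adult (2) cells. The part of such cells, and of the mitochondrial share, in the Wfdc18 difference was not tested. Of 7 milk protein genes, the 4 whose mean reached 10 CPM, the caseins Csn1s1, Csn1s2a, Csn2 and Csn3, were at least 2-fold higher in pregnancy too, as 14.6% of all genes were. Their log2 ratios of 2.94 to 6.06 became 1.09 to 3.02 without the highest cell of each group.

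Wfdc2 was carried by a handful of cells in each group. Its median was 0 in all 3, its mean 43.2, 70.2 and 57.6 CPM, and its highest cells 1299, 1606 and 3225 CPM. In pregnancy 78.8% of the summed CPM lay in cell 17, without which the mean was 12.4 CPM. Wfdc2 at 100 CPM or more was seen in 9 of 81 adult (2) cells, 7 of 58 without the mark and 2 of 71 in pregnancy (11.1%, 12.1% and 2.82%, the last with limits of 0.343 and 9.81%). The log2 ratio for pregnancy over adult of 0.07 became -1.25 without the highest cell of each group, so that its direction rests on single cells. One of the high adult cells, number 130, had no core basal gene and all 7 pan-luminal genes, whereas pregnancy cell 17 had 8 core basal genes and 1 pan-luminal gene.

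Wfdc3 was close to undetected. It had 20 reads in adult cell 102, at 86.6 CPM, 1 read in adult cell 155 and none in the other 208 retained cells. Adult cell 102 had 5 pericyte genes at 100 CPM or more beside 8 core basal genes. The 0 reads in pregnancy among 16388692 assigned reads allow up to 0.183 CPM, by a limit of 3 counts. No ratio is given for Wfdc3, since its mean stayed under 10 CPM in every group.

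Among the 4 genes whose mean reached 10 CPM, Slpi and Chil1 were at least 2-fold lower in pregnancy than in adult cells, where 14.7% of 9306 genes were, Wfdc18 was at least 2-fold higher, where 14.6% were, and Wfdc2 lay between. The median log2 ratio of all genes compared was 0.01. The same genes passed 2-fold against each adult set alone, where 15.3% and 16.8% of genes were lower and 18.0% and 21.5% higher. Because the comparison itself chose Slpi and Chil1, nothing is read from these counts.

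Within adult cells, the title sets differed more in the median of Slpi than in its mean. The log2 ratio of adult cells without the mark over adult (2) cells was -0.45 by means and -3.41 by medians. Its sign by means depended on the cells numbered 188 to 237, being -2.08 without them and 0.87 with them alone. None of the 4 genes was at least 2-fold lower by means without the mark, where 19.1% of 9014 genes were, and Wfdc18 was at least 2-fold higher (2.42), with 17.4% of genes, but lower at -0.63 when the cells numbered 188 to 237 alone stood for the set. The median difference moved with the numbers in the titles, which are divided below at 84 and 187, limits chosen after the values were seen. In adult (2) cells numbered 1 to 84, Slpi reached 100 CPM in 60 of 63 cells (95.2%, interval 86.7 to 99.0%, median 6329 CPM), and in those numbered 85 to 112 in 10 of 18 (55.6%, interval 30.8 to 78.5%, median 482). Without the mark, numbers 113 to 187 had 14 of 40 cells at this level (35.0%, interval 20.6 to 51.7%, median 22.2), and numbers 188 to 237 had 17 of 18 (94.4%, interval 72.7 to 99.9%, median 5825). Within numbers 85 to 112, 9 of the 11 cells up to number 96 reached this level and 1 of the 7 later cells. Cells with high Slpi were thus a minority in numbers 97 to 187, and both changes fell inside a title set rather than at its border.

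Along the numbers, Chil1 differed little in its share of cells and Lcn2 little in its means. Chil1 reached 100 CPM in 36.5%, 38.9%, 35.0% and 33.3% of cells in the same 4 ranges, and Spearman's rho of its thinned counts with the cell number was -0.03 in adult (2) cells and 0.01 without the mark, against -0.18 and 0.52 for Slpi. Lcn2, the siderophore-binding lipocalin, had means of 2112, 2015, 2493 and 2613 CPM in the 4 ranges. Its medians differed more, at 1402, 1682, 962 and 2273 CPM. The share of cells with Lcn2 at 100 CPM was 90.5%, 77.8%, 77.5% and 94.4%, lower in the middle ranges as for Slpi. Wfdc18 at 100 CPM or more was seen in 4 of 40 cells numbered 113 to 187 and in none of the 18 numbered 188 to 237, which allows a share of up to 16.7% by the limit of 3 counts. In pregnancy, all 4 cells with Slpi at 100 CPM and all 11 with Wfdc18 at that level carried numbers above 25, and the cells numbered 1 to 25 had 0 of 23 for each, which allows a share of up to 13.0%.

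Other measures differed along the adult numbers too, and some ranked the 4 number ranges in the same order as Slpi while others did not. The summed level of 13 immediate early genes, which respond within minutes to stress and dissociation, had medians of 9807, 14766, 4284 and 12749 CPM in the 4 ranges, and that of 11 core basal genes 44870, 34799, 25244 and 39224. The core basal medians ranked the 4 ranges as the Slpi medians did. Medians of the pan-luminal sum, 905, 388, 290 and 884 CPM, did so too. Spearman's rho of Slpi with the immediate early sum was 0.59 over adult cells without the mark but 0.03 over adult (2) cells. With the core basal sum it was 0.37 and 0.18 in the same order. Median assigned reads went from 178499 and 164354 to 108902 and 82088, so that numbers 188 to 237 had the fewest reads and high Slpi. The median mitochondrial share, a sign of RNA quality, was 8.70%, 12.3%, 15.1% and 16.9% in the 4 ranges, and 9.65%, 15.6% and 18.4% in adult (2), unmarked adult and pregnancy cells. In cells under 30% mitochondrial reads, 130 adult and 53 pregnancy cells, the log2 ratio of Slpi between stages was -7.80. The highest fibroblast sum in numbers 113 to 187 was 38199 CPM, against 673 in numbers 188 to 237. The part of these measures in the Slpi pattern was not tested. In cells with at least 6 core basal genes and under 3 genes of every other cell type list, the log2 ratio for Slpi in pregnancy over adult was -7.18, with 61 pregnancy and 100 adult cells.

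**Figure D2:**
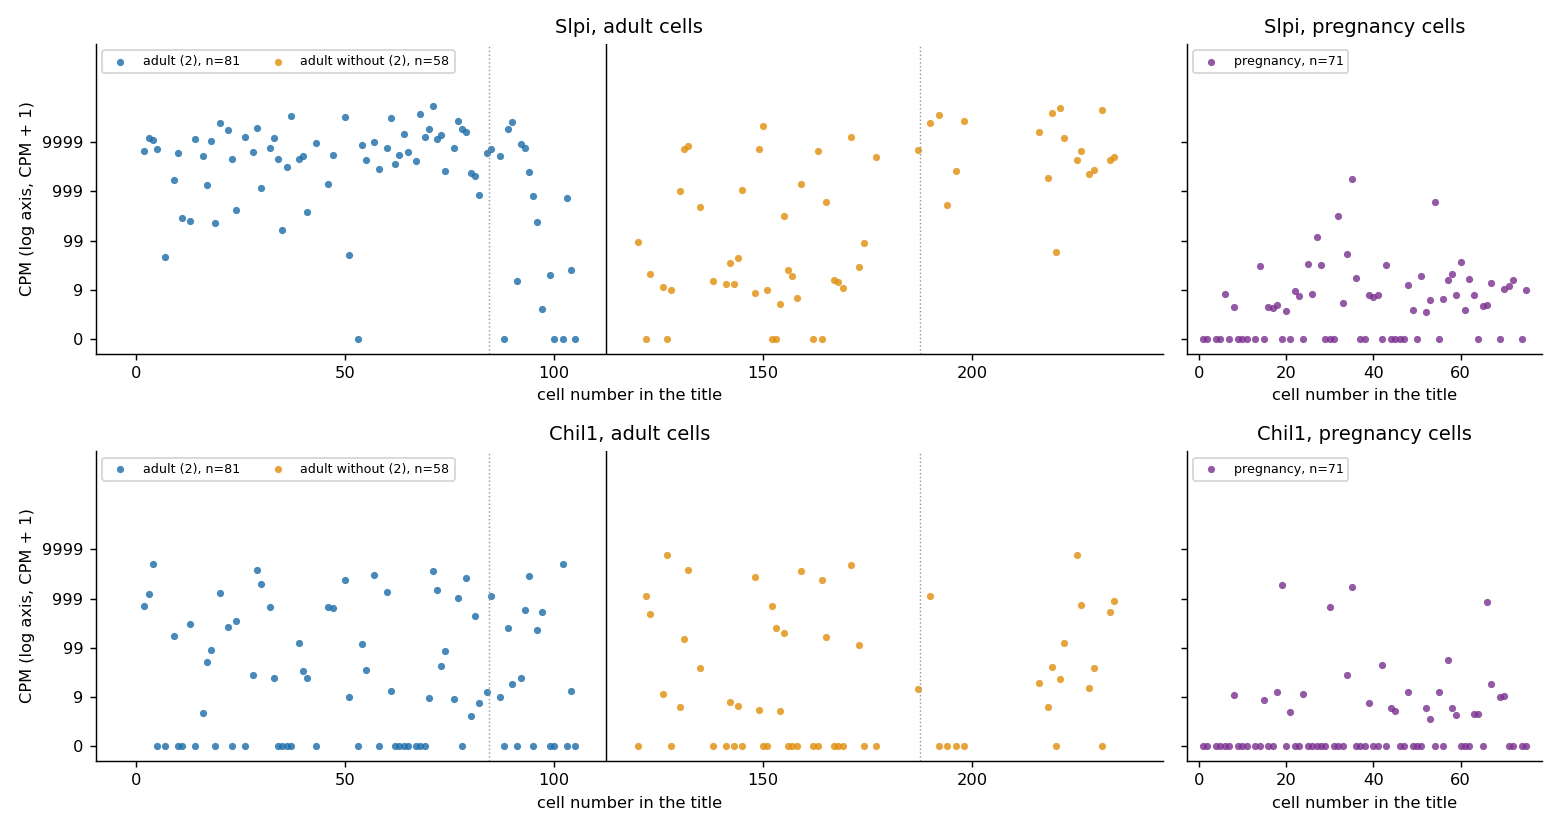
Each point is 1 retained cell at the number in its title, with its Slpi level (top) or Chil1 level (bottom) in CPM on a log axis (CPM + 1). The solid line parts the 2 adult title sets and dotted lines mark the ends of the ranges at numbers 84 and 187. Slpi is high up to about number 96, mostly low from there to 187 and high again after it, while Chil1 reaches 100 CPM in 33.3% to 38.9% of cells in all 4 ranges.

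Whether the relatives followed Slpi from cell to cell was described by Spearman's rho of counts thinned to equal depth. For Chil1 it was 0.30 in adult (2) cells (n = 81), 0.06 in adult cells without the mark (n = 58) and 0.01 in pregnancy (n = 71). In adult (2) cells, 28 of 30 cells with Chil1 at 100 CPM had Slpi at that level too, where 70 of all 81 cells had it. Without the mark, 12 of 20 Chil1 cells had Slpi, where 31 of 58 cells had it, and in pregnancy 1 of 4. That cell was number 35, which was highest in Slpi and second highest in Chil1, at 1732 CPM. The share of Chil1 cells with Slpi was thus 93.3% against 86.4% of all cells in one adult set and 60.0% against 53.4% in the other. Cells with abundant Chil1 and no Slpi read occurred, among them adult cell 102 at 5162 CPM and adult cell 127 at 7900 CPM. Cell 102 had 5 pericyte genes at 100 CPM or more beside 8 core basal genes.

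For Wfdc2 the rho with Slpi was 0.02 in adult (2) cells, 0.33 without the mark and 0.02 in pregnancy, and for Wfdc18 -0.09, -0.02 and -0.11. The Wfdc2 value without the mark was 0.39 in numbers 113 to 187 and 0.36 in numbers 188 to 237, as large within each range as over both, but only 10 of the 58 cells had Wfdc2 after thinning. All 9 adult (2) cells with Wfdc2 at 100 CPM also had Slpi at that level, where 70 of all 81 cells had it. No retained cell had 4 of the genes at 100 CPM. Exactly 3 reached it in 3 adult (2) cells, 4 without the mark and 0 in pregnancy. Exactly 2 reached it in 32 of 81 adult (2) cells, 13 of 58 without the mark and 2 of 71 in pregnancy.

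**Figure D3:**
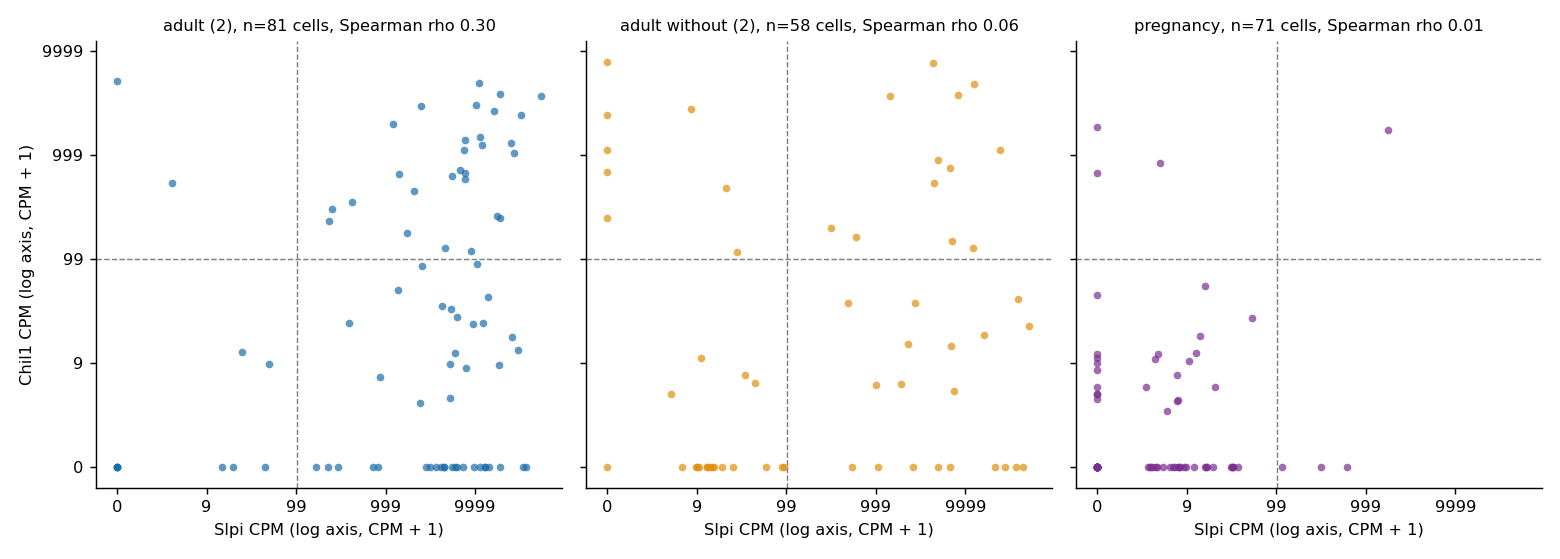
Chil1 level against Slpi level in each retained cell, both in CPM on log axes (CPM + 1), in adult (2), adult without (2) and pregnancy cells, with dashed lines at 100 CPM. Cells high in both, in Slpi alone and in Chil1 alone are all seen in adult cells, and in pregnancy only cell 35 lies above both lines.

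The genes most like Slpi were ranked by the smaller of the rhos of the 2 adult sets, over 2742 genes seen in at least 25% of cells of both. First was Ltbp2, a binding protein of latent TGF-beta complexes and matrix microfibrils, at 0.43 in adult (2) cells and 0.63 without the mark. Krt17, a keratin of basal and stressed epithelium, followed at 0.41 and 0.44, and the metallothioneins Mt2 and Mt1, small metal-binding proteins, at 0.42 and 0.37 and at 0.53 and 0.36. The next were Fxyd3, Ahnak, Ifitm3, Icam1, Cpne8 and Tsc22d1, the last at 0.29 in both sets. Chil1 ranked 482. Over all ranked genes the median rho was 0.03 and 0.00. With summed pan-luminal counts, the rho of Slpi was 0.32 in adult (2) cells, 0.40 without the mark and 0.23 in pregnancy. In the same order it was -0.21, -0.12 and -0.18 with luminal progenitor genes, and -0.23, -0.04 and -0.13 with mature luminal genes.

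Some of these genes also moved along the title numbers. Ltbp2 had means of 992 and 837 CPM in numbers 1 to 84 and 85 to 112, 106 in 113 to 187 and 532 in 188 to 237. Within these ranges its rho with Slpi was 0.40 (n = 63), 0.40 (n = 18), 0.66 (n = 40) and -0.23 (n = 18), so that it was positive in 3 of 4. Krt17 likewise turned negative in numbers 188 to 237, at -0.29. Mt1 differed little along the numbers until its highest mean of 29235 CPM in numbers 188 to 237. The rho of Mt1 was positive in all 4 ranges, from 0.20 to 0.48. Mt2, Fxyd3, Ahnak, Ifitm3, Icam1, Cpne8 and Tsc22d1 were positive in all 4 too. Some of these values were near 0, the lowest being 0.045 for Tsc22d1 in numbers 113 to 187. Among these 10 genes, Ltbp2, Krt17, Fxyd3, Tsc22d1 and Mt1 were at least 2-fold lower in pregnancy than in adult cells, beside 14.7% of all genes, with log2 ratios of -4.63, -2.81, -1.56, -1.66 and -1.15. The other 5 lay between -0.99 for Mt2 and -0.19 for Icam1. None came near the ratio of Slpi, although Ltbp2 ranked 3 from the lowest of 9306 genes. These 10 genes had to be seen in at least 25% of cells of both adult sets, with no such demand in pregnancy. The 14.7% covers genes with a mean of 10 CPM in either stage, so nothing is read from the count of 5.

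The genes most opposite to Slpi were Rap2b, Ube2v1, Col4a1, Mfge8 and Cbx3. Col4a1, a basement membrane collagen, had rhos of -0.26 and -0.29 and was higher in pregnancy, at a mean of 3952 CPM against 835 in adult cells. Mfge8, a secreted milk fat globule protein, had rhos of -0.23 and -0.51, and its means were 239, 665, 2053 and 287 CPM over the 4 number ranges, the third falling to 1158 without adult cell 120.

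The rho of Chil1 with Lcn2 was higher than that with Slpi in every group. With Lcn2 it was 0.44 in adult (2) cells, 0.38 without the mark and 0.27 in pregnancy, and with the iron oxidase ceruloplasmin (Cp) 0.35, 0.42 and 0.01. With the acute phase serpin Serpina3n it was 0.20, 0.48 and -0.13. Lcn2, Cp and Serpina3n were singled out here after their values were seen. Slpi with Lcn2 gave 0.23, 0.16 and -0.13. All 30 adult (2) cells, all 20 cells without the mark and all 4 pregnancy cells with Chil1 at 100 CPM had Lcn2 at that level, but so had 71 of 81, 48 of 58 and 68 of 71 cells in all. In core basal cells with few other markers, the Chil1 and Lcn2 rho was 0.37 (n = 58), 0.36 (n = 42) and 0.20 (n = 61).

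The rest of the WAP family was nearly silent. Of 19 other WAP-domain genes, 6 had no read in any retained cell, and 1, Wfikkn1, a secreted inhibitor with several domains, passed a mean of 10 CPM in adult or pregnancy cells, through 1 adult cell at 100 CPM or more. Of 8 other chitinase-like and chitinase genes, 1, Chid1, passed, with means of 99.7 CPM in adult and 33.2 in pregnancy, which became 19.9 and 22.8 without the highest cell of each group. No read in any retained cell came from 6 listed serine proteases of neutrophils and mast cells. These were neutrophil elastase (Elane), cathepsin G (Ctsg), proteinase 3 (Prtn3), the mast cell chymase Cma1 and the tryptases Tpsb2 and Tpsab1. Slpi is known to inhibit some of them, elastase and cathepsin G included. The neutrophil calgranulins S100a8 and S100a9 had 1 read in all retained cells. Since the adult cells were sorted as negative for lineage markers, nothing about Slpi is read from this absence.

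Progranulin (Grn), the growth factor that Slpi shields from elastase, was higher in pregnancy, at means of 192 and 70.9 CPM in the adult sets and 591 in pregnancy (log2 ratio 1.99). Its partner prosaposin (Psap) lay at a log2 ratio of -0.08, and its receptor sortilin (Sort1) stayed under 10 CPM. Within adult cells Grn was at least 2-fold lower without the mark, so that the pregnancy difference was 1.57 against one set and 2.89 against the other.

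Of 16 other secreted defence genes, 5 reached a mean of 10 CPM, with a median log2 ratio of 0.13 against 0.01 for all genes, 1 (Defb1, an epithelial defensin) at least 2-fold lower (14.7% of all genes) and 1 (Lbp, the lipopolysaccharide-binding protein) at least 2-fold higher (14.6%). Neither passed 2-fold against adult cells without the mark (-0.94 and 0.18) or without the highest cell of each group (-0.91 and 0.59). Lcn2, the most abundant, had means of 2091, 2530 and 2492 CPM and reached 100 CPM in 68 of 71 pregnancy cells. Complement C3 had means of 193, 293 and 265 CPM, which became 152, 87.9 and 209 without the highest cell of each group. It reached 100 CPM in 17 of 81, 9 of 58 and 27 of 71 cells.

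Of a list of 14 other inhibitors reported here, 13 were compared, with a median log2 ratio of -0.71. At least 2-fold lower in pregnancy were 5, beside 14.7% of all genes, namely annexin A1 (Anxa1, -3.04), a phospholipid-binding protein rather than a protease inhibitor, the C1 inhibitor Serping1 (-2.24), maspin (Serpinb5, -1.93), the matriptase inhibitor Spint1 (-1.61) and Serpina3n (-1.31). Maspin, a known basal cell serpin, reached 100 CPM in 49 of 81 adult (2) cells, 26 of 58 without the mark and 12 of 71 in pregnancy. Adult cell 120 held 22483 CPM of Anxa1, but the Anxa1 ratio did not rest on it, being -3.38 without the highest cell of each group. The comparison of pregnancy with each adult set used the same pregnancy cells, so that both ratios of a gene share these cells.

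**Figure D4:**
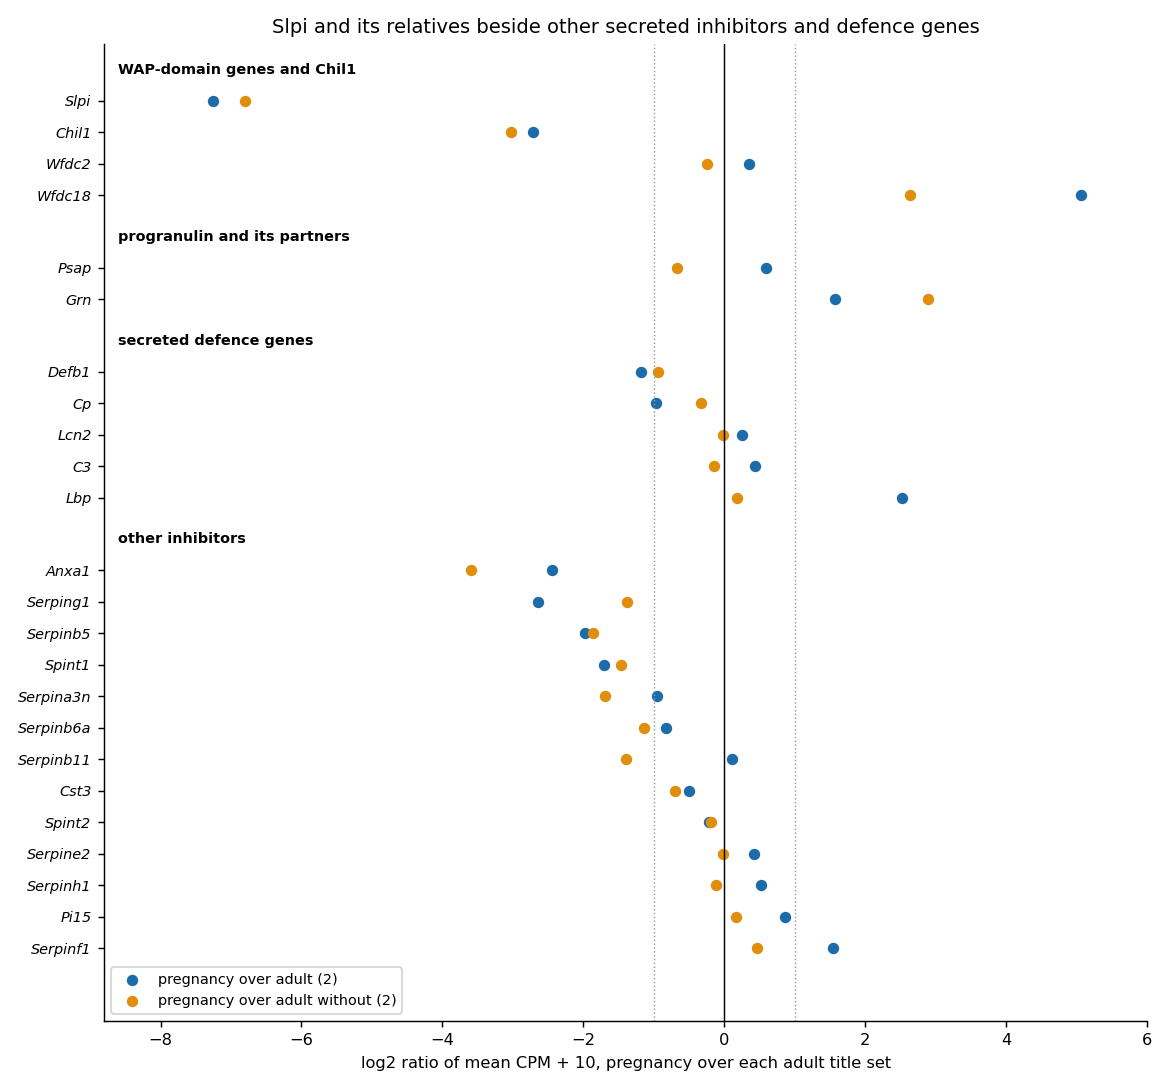
Log2 ratio of mean CPM (10 added) in pregnancy over adult (2) cells (blue) and over adult cells without the mark (orange), for each gene whose mean reached 10 CPM, by list. Slpi stands at -7.25 and -6.80, below every other gene shown, Wfdc18 is the highest against adult (2) cells, and both points of Lcn2 lie near 0.

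Most genes beside Slpi on the chromosome were at or near 0. The 3 seminal vesicle genes on one side, Svs3a, Svs6 and Svs5, had 1 read in all retained cells together. On the other side Matn4 had a mean near 2 CPM in both adult sets, and Rbpjl had 25.3 CPM in adult (2) cells, 0.845 without the mark and 2.87 in pregnancy. Sdc4, a cell surface proteoglycan whose transcription start lies 86.7 kb away, was abundant in every group, at means of 14976, 12082 and 4861 CPM, and it reached 100 CPM in 70 of 71 pregnancy cells. Its log2 ratio of -1.50 was in the same direction as that of Slpi but far smaller.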

How the data were processed

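The counts deposited by the authors are whole read pairs per Entrez gene in each cell, with exon lengths and no normalization. Per the labels and the study's methods, the authors aligned reads from Nextera XT libraries to mm10 with Subread 1.5.0 and counted them with featureCounts against its built-in RefSeq annotation. There were no molecular identifiers, so PCR copies count separately, and use of strand is not given in the sources used here. IDs were matched to RefSeq symbols (GRCm38.p6), 25275 of 27179 matching, and 15 mitochondrial and 124 ribosomal protein genes were left out. The table of all cells repeats the per-cell files and was not used.

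Cells were scaled to CPM. Ratios compare mean CPM over cells with a pseudocount of 10 CPM, which understates changes of low genes, for genes whose mean reached 10 CPM in 1 of the groups or both. Thinning drew 50000 reads per cell without replacement. A gene of a cell type list counted at 100 CPM. Intervals (exact Clopper-Pearson, 95%) and the limit of 3 counts cover counting error only, and SDs are over cells of unnamed animals. No doublet caller was run. Pooled reads with edgeR 4.0.16 (TMM) and DESeq2 1.42.0 size factors were alternatives. Scripts (Python 3.11.15, numpy 2.4.6, scipy 1.17.1) were tested on simulated data with known ratios. The genes, lists and alternatives were chosen with earlier results of these data known. Named genes were those 5, the genes of the WAP, chitinase, protease, progranulin, defence and inhibitor lists, 3 neighbours on each side of Slpi, and the 10 most like and 5 most opposite genes. One gene of the inhibitor list is not reported here, and the counts and median of that list leave it out.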

Additional observations from a re-analysis of the deposited data

Results flagged for a closer look

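Cells left out by the filter on depth were not part of the comparisons, and their reads of these genes lay above the limit that a count of 0 allows in the following cases. In the 31 adult (2) cells left out, Slpi held 0.179% of assigned reads, Chil1 0.106%, Wfdc18 0.00265% and Wfdc2 0.00133%. Slpi held 0.273%, Wfdc18 0.0192% and Chil1 0.0388% in the 67 adult cells left out without the mark. In the 4 pregnancy cells left out, the shares were 0.413% for Slpi, 0.0577% for Wfdc18 and 0.00748% for Chil1. In retained cells Slpi held 0.873%, 0.591% and 0.00425% of reads, so that it was lower in left out than in retained adult cells and higher in pregnancy. Of 387 Slpi reads in the left out pregnancy cells, 386 came from cell 73, which had 93.3% mitochondrial reads and 8 core basal genes.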

How the results depend on the processing

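The log2 ratio of Slpi for pregnancy over adult kept its sign and stayed past 2-fold in all 16 alternatives, from -8.06 to -4.40, and so did that of Chil1, from -3.95 to -1.13, although against adult cells without the mark Chil1 was -0.69 by medians. That of Wfdc18 stayed positive in all 16, from 0.76 to 5.16, and past 2-fold in 15, the exception being medians. For Slpi it was -4.40 with no filter on cells, where pregnancy cell 73 enters, -7.80 in cells under 30% mitochondrial reads, -7.33 and -5.72 with pseudocounts of 1 and 100 CPM, -7.22 from pooled reads with 10 CPM added, -7.26 with TMM factors, -7.28 with median ratio factors, -6.0 from mean log2 values, -8.06 from medians, -7.21 scaled to all reads and -7.84 without the highest cell of each group. Alternatives on the title numbers were chosen after seeing the data, leaving out numbers 188 to 237 (-6.83) and, of the cells without the mark, using them alone (-7.45).

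The ratio of Slpi between adult sets was less stable. It was -0.53 with at least 100000 reads and 1500 genes, -0.87 with no filter on cells, -0.14 in core basal cells with few other markers, -0.34 under 30% mitochondrial reads, -0.56, -0.58 and -0.55 from pooled reads, with TMM and with median ratio factors, -2.53 from mean log2 values, -3.41 from medians, -0.61 scaled to all reads, -0.54 without the highest cells, -2.08 without numbers 188 to 237 and 0.87 with them alone. Of the 4 genes compared, 1, Slpi, was at least 2-fold lower without the mark by mean log2 values, by medians and without numbers 188 to 237, where 1.25%, 4.53% and 24.0% of 9014 genes were. With numbers 188 to 237 alone, the Wfdc18 ratio between adult sets was -0.63 in place of 2.42.

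Slpi was seen in 87.1% of adult cells at 10 CPM and also with 1 read after thinning, in 87.9% with numbers 188 to 237 alone, and in 26.8% and 16.9% of pregnancy cells at 10 CPM and with 1 read. The Chil1 rho with Slpi without the mark was -0.15 in core basal cells. The cause of these shifts was not tested. The direction of Wfdc2 between stages was kept in 8 of 16 alternatives, and by medians, which were 0 in both stages, it had none. Depth limits what can be said of Wfdc3, and means of genes held by few cells rest on those cells. No paired analysis was possible because each sample is 1 cell and the cell numbers pair nothing.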
